A study of Caenorhabditis elegans with 58 samples.

Results

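The mir-35 microRNA of the nematode Caenorhabditis elegans was followed through both of its strands, in its wild-type sequence and in 5 edited sequences. The 12 members are the table lines of mir-35 itself (mir-35_3p, the guide, and mir-35_5p*, the passenger) and of the alleles cdb4, cdb6, cdb72, cdb78 and cdb95, each with a 3p and a 5p line. They were chosen by name, out of 296 lines that cover miRNA arms, edited sequences and spike-in RNAs. A set of 42 libraries held L1 larvae and embryos of edited strains (3 libraries per strain and stage) and of wild-type strain N2 (6 per stage). By genotype label the edited strains were seed_rev, mir-35(cdb2 cdb4), strain MCJ11; seed_mut, mir-35(cdb2 cdb6), MCJ13; mut_3', mir-35(cdb2 cdb72), MCJ180; mir-82_3', mir-35(cdb2 cdb 78), MCJ191; and seed_rev_no_bulge, mir-35(cdb2 cdb 95), MCJ211. All edited strains carry the allele name cdb2, which N2 does not, and the labels do not say what cdb2 is, so any effect of cdb2 cannot be told apart from that of the second allele. The labels do not spell the strain names out either: they refer to the seed, to the 3' part, and to mir-82, another C. elegans miRNA. A second set of 16 libraries held ebax-1(null) animals, genotype ebax-1(tm2321), strain CZ9907, and wild type, each sampled as 2-8 cell embryos, at comma, at pretzel and as starved L1, in pairs of libraries. Samples were whole hermaphrodite animals from bulk liquid culture, in which embryos freed by bleaching were either collected or left overnight without food to hatch as starved L1. The labels do not say whether replicates were separate cultures, so p-values measure the spread between these samples.

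A miRNA is cut from a hairpin as a duplex, of which the guide strand stays in an Argonaute protein and the passenger strand is usually discarded. The seed, near the 5' end of the guide, pairs with target mRNAs and defines families, and bases nearer the 3' end can add to the pairing. The mir-35 family of C. elegans, mir-35 to mir-42, shares a seed, is essential for embryonic development, is abundant in embryos and is known to drop around the time of hatching. Most of its genes, mir-35 among them, lie in a cluster. EBAX-1 belongs to a ubiquitin ligase, as its substrate receptor, and has been tied to target-directed decay of miRNAs, and the series title concerns how the timed loss of this family depends on the seed.

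Each strain's mir-35 was taken from the line of its own sequence. The guide lines mir-35_cdb4_3p and mir-35_cdb95_3p shared reads about evenly, with a ratio of 0.856 to 1.19 over the 12 libraries of seed_rev and seed_rev_no_bulge, so the guide of both strains is the sum of these lines and the counts do not distinguish their guides. Their passenger lines were kept apart, since their ratio ran from 0.0281 to 881. The own passenger line had the more counts in all libraries of seed_rev and in the embryos of seed_rev_no_bulge, but in the L1 of seed_rev_no_bulge mir-35_cdb4_5p had 712, 139 and 333 counts against 81, 50 and 32 of mir-35_cdb95_5p. Libraries held 3703314 to 20402797 miRNA counts in the allele set and 170758 to 4059401 in the staged set. No molecular identifiers were used, so counting floors cover counting error only. Levels are in CPM, the counts scaled to a common library size, after scaling by TMM (trimmed mean of M-values) factors. Levels of different sequences can differ in how well they are ligated and amplified, which was not tested.

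The own guide line marked every edited strain. Between the lowest own library and the highest library of another strain the distance was 96.0 times in L1 and 68.6 times in embryos for mir-35_cdb6_3p in seed_mut, 2.83 and 84.2 times for mir-35_cdb72_3p in mut_3', and 3.08 and 195 times for mir-35_cdb78_3p in mir-82_3'. It was 72.2 and 153 times for mir-35_cdb4_3p in seed_rev and 9.71 and 75.9 times for mir-35_cdb95_3p in seed_rev_no_bulge, with the other of this pair left out. Wild-type mir-35_3p nevertheless had reads in all edited libraries, 35.3 to 566 CPM in L1 and 55.7 to 723 CPM in embryos. For the scarce alleles, reads on the lines of other sequences, wild-type and edited together, were a large part. The own line made up 6.64 to 22.1% of all mir-35 guide reads in seed_mut L1 and 14.1 to 43.3% in seed_mut embryos. In mir-82_3' L1 it made up 7.24 to 77.6%. Replicate 1 of mir-82_3' L1 stood apart, with 95.1 CPM of its own guide against 566 CPM of wild-type mir-35_3p, and it also held the highest L1 level of several other strains' lines. In seed_mut L1, replicate 2 held 573 CPM on mir-35_cdb4_3p and 589 CPM on mir-35_cdb95_3p, above its own guide at 96.8 CPM. In L1 the median of mir-35_cdb6_3p in other strains was 0.54 CPM in the runs of sample numbers that hold seed_mut and 0 in the other runs. In the same order it was 23.7 and 6.17 CPM for mir-35_cdb72_3p, 4.50 and 0.282 CPM for mir-35_cdb78_3p and 159 and 23.0 CPM for mir-35_cdb4_3p. For mir-35_cdb95_3p it was 22.9 CPM in the runs of seed_rev_no_bulge and 172 CPM in the others. Those others are the runs of seed_rev, whose guide shares reads with this line. The origin of these reads was not tested.

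In wild type the guide was 1476 to 9330 CPM in L1 (median 2124), against 31507 to 242442 CPM in embryos (median 146276). The stages did not overlap. In L1, replicates 1 and 6 were high at 9330 and 7344 CPM and the other 4 libraries lay at 1476 to 2272 CPM, while among embryos replicate 3 was low at 31507 CPM. The guide was the most abundant arm in 4 of 6 embryo libraries and ranked 22 to 37 in L1. L1 kept 2.73% of the embryo level (95% interval 1.37 to 5.47), a log2 change of -5.19 (SE 0.49, edgeR adjusted p = 2.12e-11). Both strands of wild-type mir-35 fell, in a comparison in which 31.4% of the 229 arms tested were lower in L1. In whole animals, fewer cells holding mir-35 and less of it per cell cannot be told apart.

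**Figure D1:**
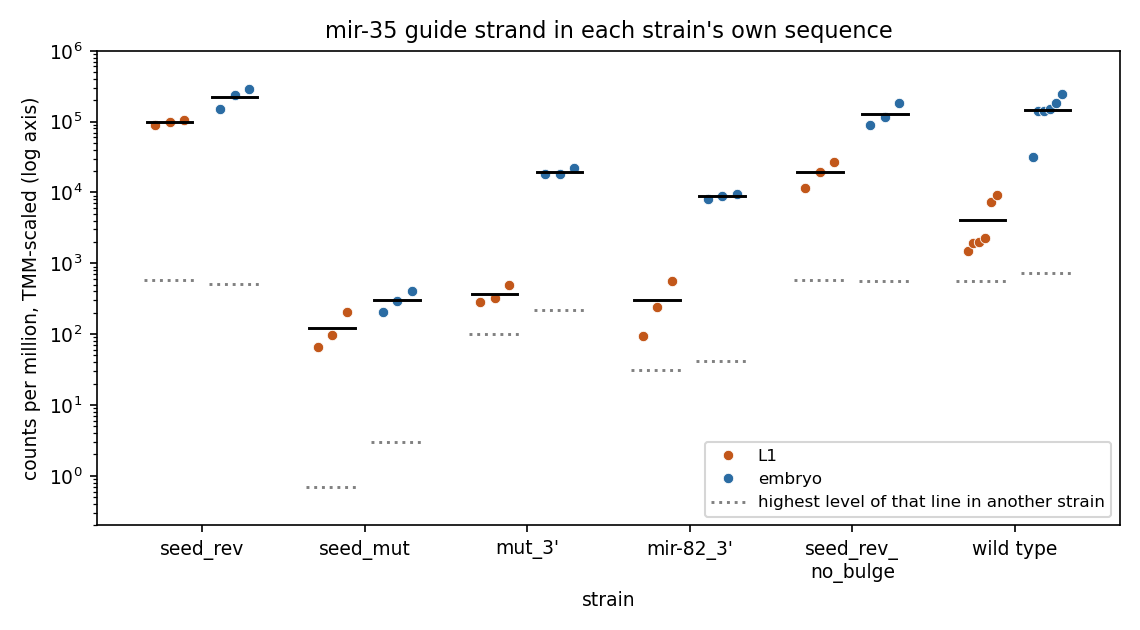
mir-35 guide level in CPM (TMM-scaled, log axis) in each strain's own sequence, L1 left and embryos right. Points are libraries, black bars group means and dotted lines the highest level of that line in another strain (for seed_rev and seed_rev_no_bulge, of 1 of their 2 summed lines). The L1 and embryo points lie close together in seed_rev (98041 and 223682 CPM on average) and far apart in wild type (4051 and 148112 CPM).

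In seed_rev and seed_mut L1 kept more of the guide than in wild type, by a test of the difference given after the values. In seed_rev it was 104820, 99646 and 89657 CPM in L1, against 234867, 286663 and 149517 CPM in embryos. All 3 L1 libraries lay below all embryo libraries, yet L1 kept 43.8% of the embryo level (19.1 to 101%). The log2 change of -1.19 (SE 0.59) did not pass (edgeR adjusted p = 0.104). Under spike-in scaling it was 0.17, where the median of all arms stood at 1.15 rather than -0.14. Fitted on the seed_rev libraries alone it was -1.14 and passed (edgeR adjusted p = 0.00162). The seed_rev guide stayed the second most abundant arm in all 3 L1 libraries and was the first in all 3 embryo libraries.

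The seed_mut guide was scarce at both stages, at 206, 96.8 and 65.8 CPM in L1, against 403, 292 and 203 CPM in embryos. The groups overlapped narrowly, since L1 replicate 1 lay above embryo replicate 3. L1 kept 41.1% (17.8 to 94.5%), a log2 change of -1.28 (SE 0.59, edgeR adjusted p = 0.0735). The adjusted p was 0.0188 with TMM factors computed without the family, 0.0238 without a filter on low counts, 0.0324 in a fit of these groups alone and 0.0426 without L1 replicate 1.

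For seed_rev_no_bulge the guide was 26698, 19133 and 11655 CPM in L1, against 180446, 117467 and 88078 CPM in embryos. The stages did not overlap. L1 kept 14.9% (6.21 to 35.7%), a log2 fall that passed (-2.75, SE 0.62, edgeR adjusted p = 0.000529). Its change lay between those of seed_rev and wild type in size, but seed_rev lies in other runs of sample numbers. Of its 2 strands both fell, where 24.5% of all arms were lower in L1.

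The guide also fell in the strains named for the 3' part. In mut_3' it was 320, 501 and 283 CPM in L1, against 18456, 22406 and 18254 CPM in embryos. L1 kept 1.87% (0.683 to 5.11%), a log2 change of -5.74 (SE 0.72, edgeR adjusted p = 3.09e-08). In mir-82_3' it was 95.1, 241 and 562 CPM in L1, against 8785, 9425 and 8196 CPM in embryos. The stages were far apart in both strains. L1 of mir-82_3' kept 3.4% (1.29 to 8.92%), a log2 change of -4.88 (SE 0.69, edgeR adjusted p = 3.77e-07). Without the mir-82_3' L1 library that stood apart the change was -4.21, and it still passed (edgeR adjusted p = 5.74e-05). Of the 2 strands, both fell in mut_3' and in mir-82_3', where 23.6% of arms were lower in either strain.

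Whether these falls differed from that of wild type was tested directly. The change of the guide was log2 4.00 less negative in seed_rev than in wild type (SE 0.75, edgeR adjusted p = 0.00106) and 3.91 less negative in seed_mut (SE 0.75, edgeR adjusted p = 0.00154). In each of these comparisons the mir-35 guide was the only arm of 229 that passed, which is 0.437% of the arms. In seed_rev_no_bulge the difference was 2.45 (SE 0.73), which did not pass over all arms (unadjusted p = 0.00181, edgeR adjusted p = 0.414) but did without wild-type L1 replicate 1 (2.88, edgeR adjusted p = 0.0482). In mut_3' it was -0.55 (95% interval -2.0 to 0.90, edgeR adjusted p = 0.999) and in mir-82_3' 0.31 (-1.14 to 1.76, edgeR adjusted p = 0.982, and -0.41 in difference without its L1 replicate 3). No arm passed in the last 3 comparisons by edgeR (0%) or by DESeq2. At an unadjusted p under 0.05 edgeR held 5 arms in seed_rev_no_bulge, 3 in mut_3' and 9 in mir-82_3'. Set against only the wild-type libraries of the same runs of sample numbers, the seed_mut difference was 3.14 and did not pass (edgeR adjusted p = 0.0605).

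Among the edited strains, in 3 pairs compared, the guide did not differ past the threshold over all arms. No arm passed by edgeR or DESeq2, and 18, 7 and 2 arms had an unadjusted edgeR p under 0.05 in the pairs in the order given here. The change of seed_rev_no_bulge minus that of seed_rev was -1.56 (95% interval -3.24 to 0.12, edgeR adjusted p = 0.626). For seed_mut minus seed_rev it was -0.09 (-1.77 to 1.58, edgeR adjusted p = 0.969), a value whose sign turned without seed_rev embryo replicate 1 (0.17) or 3 (0.01), or without seed_mut embryo replicate 1 (0.14) or L1 replicate 2 (0.03) or 3 (0.08). For mir-82_3' minus mut_3' it was 0.86 (-0.81 to 2.54, edgeR adjusted p = 0.978). Intervals of this width do not show that the pairs changed alike. The strains of the first pair lie in different runs of sample numbers, so strain and run cannot be told apart there. In each of the other pairs both strains lie in the same runs.

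The 7 other guides of the family, which were not edited, gave a measure within each library. All 7 fell in each of the 6 strains, with medians between log2 -5.84 in mut_3' and -4.88 in seed_rev_no_bulge, against medians of all arms between -0.37 and -0.14. Of all arms, 23.6 to 31.4% were lower in L1, depending on the strain. The least fall was that of mir-42, at -1.96 to -2.89 over the strains. For none of the 7 did the change in an edited strain differ from that in wild type past the threshold. Relative to the sum of these guides, mir-35 changed by log2 3.96 ± 0.31 between same-numbered L1 and embryo libraries of seed_rev (SD, n = 3), 3.44 ± 0.36 in seed_mut and 2.12 ± 0.61 in seed_rev_no_bulge, against -0.20 ± 0.95 in wild type (n = 6). In each of these 3 strains, all 3 pairs lay above all 6 pairs of wild type. The 2-sided exact permutation test gave adjusted p = 0.0298 for seed_rev and for seed_mut and 0.0397 for seed_rev_no_bulge, over 5 strains. In mut_3' the relative change was -0.15 ± 0.92 and in mir-82_3' -0.17 ± 0.85, and the exact permutation adjusted p was 0.929 for both. The numbers do not show that libraries were handled as pairs: the mean changes do not depend on how libraries are matched, but the SD and p do. This comparison was added after the data had been seen.

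**Figure D2:**
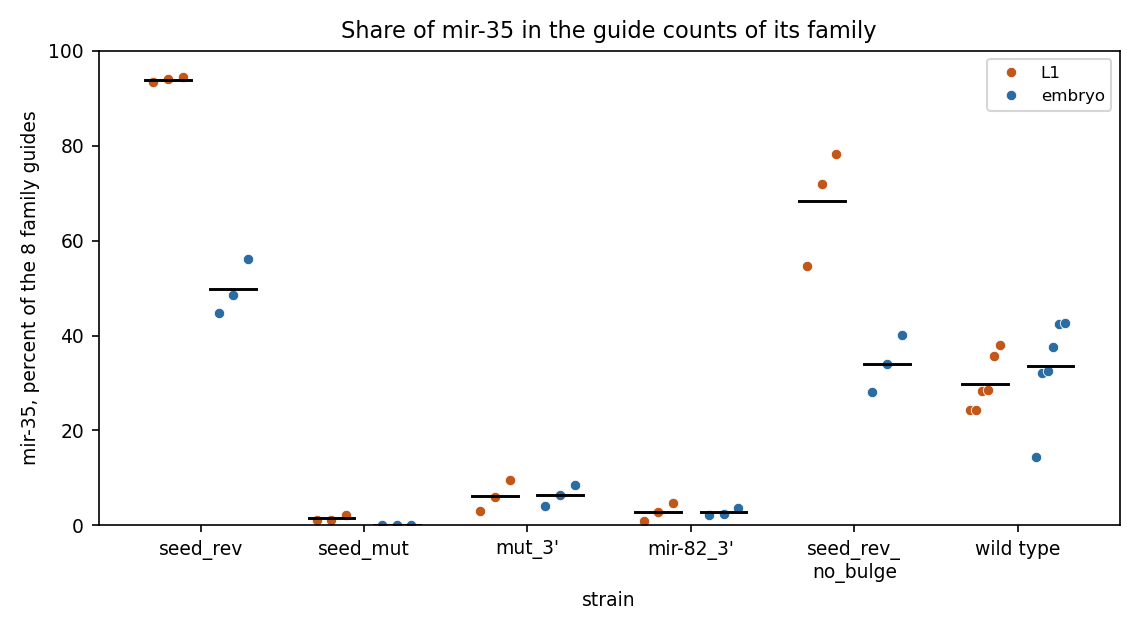
Share of mir-35 among the guide counts of its 8-member family, in percent, L1 left and embryos right. Points are libraries and bars are means. In seed_rev the L1 share is 93.4 to 94.4% and the embryo share 44.8 to 56.2%, while in wild type the stages overlap.

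As a share of the family's guide counts, edited mir-35 made up 93.4 to 94.4% in L1 of seed_rev, against 44.8 to 56.2% in its embryos. In seed_rev_no_bulge it was 54.7 to 78.2% in L1 and 28.1 to 40.1% in embryos, and in seed_mut 1.19 to 2.15% in L1 and 0.125 to 0.152% in embryos. The stages did not overlap in any of these strains. In mut_3' the share was 2.94 to 9.51% in L1 and 4.08 to 8.54% in embryos, in mir-82_3' 1.00 to 4.75% and 2.19 to 3.65%, and in wild type 24.3 to 38.1% and 14.3 to 42.7%. There the stages overlapped, as the plot of family shares shows.

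The levels themselves differed widely between sequences. In L1 the guide was higher than in wild type in seed_rev (log2 4.60, SE 0.51, edgeR adjusted p = 5.61e-09) and in seed_rev_no_bulge (2.24, SE 0.49, edgeR adjusted p = 0.00995). The seed_rev_no_bulge call ended without its L1 replicate 1 (2.07, edgeR adjusted p = 0.117), under spike-in scaling (1.68, 0.293), in a fit of the groups compared (2.26, 0.156) and with its own line alone (1.41, 0.162). It was lower in seed_mut (-5.04, SE 0.67), mut_3' (-3.46, SE 0.61) and mir-82_3' (-3.76, SE 0.62), each with edgeR adjusted p of at most 0.000177. In embryos the guide was lower than in wild type in seed_mut (-8.95, SE 0.81, edgeR adjusted p = 3.53e-11), mut_3' (-2.91, SE 0.59, edgeR adjusted p = 0.00185) and mir-82_3' (-4.07, SE 0.63, edgeR adjusted p = 3.07e-05). For seed_rev (0.59, SE 0.50) and seed_rev_no_bulge (-0.20, SE 0.51) the embryo difference did not pass, and its sign turned with cdb4 counted alone for seed_rev (-0.31), and for seed_rev_no_bulge under spike-in scaling (0.31) or without embryo replicate 2 (0.17) or 3 (0.20). The only other member of these comparisons is the passenger, and 0.437 to 0.873% of all arms passed in each of them. In embryos the order of the group means ran from seed_rev (223682 CPM) over wild type (148112), seed_rev_no_bulge (128664), mut_3' (19705) and mir-82_3' (8802) down to seed_mut (299). The libraries of the first 3 overlapped, and those of each later neighbour did not. In L1 the order was seed_rev (98041 CPM), seed_rev_no_bulge (19162), wild type (4051), mut_3' (368), mir-82_3' (299) and seed_mut (123), where mir-82_3' overlapped both mut_3' and seed_mut, which did not overlap each other.

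The passenger strand is cut from the same hairpin. In seed_rev it was 102, 73.0 and 40.5 CPM in L1, against 705, 507 and 671 CPM in embryos. L1 kept 11.4% (log2 -3.13, SE 0.65, edgeR adjusted p = 0.000116), so that only 1 of the 2 strands passed where 26.6% of all arms were lower. In seed_rev_no_bulge it was 10.6, 5.64 and 4.96 CPM in L1, against 457, 379 and 304 CPM in embryos. L1 kept 1.87% (-5.74, SE 0.73, edgeR adjusted p = 6.43e-08). In seed_mut it was 2.69, 1.61 and 1.44 CPM in L1, against 93.5, 9.47 and 35.4 CPM in embryos. L1 kept 4.14% (-4.59, SE 0.70, edgeR adjusted p = 1.77e-06), again with 1 of 2 strands past the threshold where 25.8% of arms were lower. These seed_mut L1 levels lie near the median of the same line in L1 of other strains, 1.44 CPM.

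In mut_3' the passenger was 52.6, 82.6 and 99.2 CPM in L1, against 467, 120 and 233 CPM in embryos. The stages did not overlap, but L1 kept 28.6% (-1.81, SE 0.61, edgeR adjusted p = 0.0154). In mir-82_3' it was 38.8, 3.93 and 16.03 CPM in L1, against 63.8, 76.9 and 106 CPM in embryos. L1 kept 23.7% (-2.08, SE 0.62, edgeR adjusted p = 0.00666). The mut_3' call ended without embryo replicate 1 (-1.24) or 3 (-1.63) or L1 replicate 1 (-1.45) or 2 (-1.72). That of mir-82_3' ended without embryo replicate 2 (-1.71) or 3 (-1.37) or L1 replicate 2 (-1.14) or 3 (-1.45). Without L1 replicate 1, the library that stood apart, the mir-82_3' change was -2.85 and passed (edgeR adjusted p = 0.00228). In wild type the passenger was 0.899 to 2.36 CPM in L1 (median 1.32), against 6.70 to 27.4 CPM in embryos (median 19.8). L1 kept 8.10% (-3.63, SE 0.49, edgeR adjusted p = 4.87e-08).

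**Figure D3:**
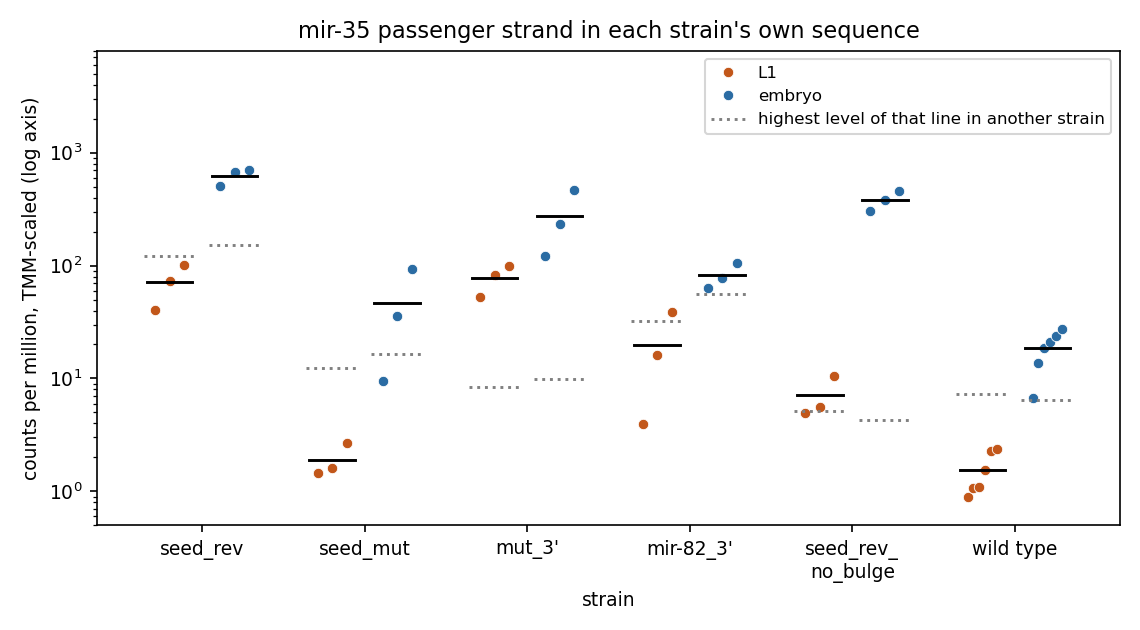
mir-35 passenger level in CPM (TMM-scaled, log axis) in each strain's own sequence, L1 left and embryos right. Points are libraries, black bars means and dotted lines the highest level of the same line in another strain. All mut_3' points (L1 52.6 to 99.2 CPM) stand above their dotted lines (8.34 and 9.82 CPM), while the L1 points of wild type, seed_mut and seed_rev stand below theirs.

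Reads of the passenger lines in strains that lack the sequence limit these values. In L1 the own passenger stood above the highest level in any other strain in all 3 libraries of mut_3', in 2 of 3 of seed_rev_no_bulge, in 1 of 3 of mir-82_3' and in none of seed_rev, seed_mut or wild type. For seed_rev that highest level was 123 CPM, for mir-82_3' 32.3 CPM, for seed_mut 12.4 CPM and for wild type 7.28 CPM. The medians in other strains were lower than these highest levels, at 15.9 CPM for mir-35_cdb4_5p and 1.04 CPM for mir-35_5p*. For mir-35_cdb6_5p the median was 1.44 CPM, near the 1.44 to 2.69 CPM of seed_mut itself. For mir-35_cdb78_5p it was 4.81 CPM, above the lowest mir-82_3' library at 3.93 CPM. The lowest wild-type library, at 0.899 CPM, also lay below the median of its line in other strains. In embryos all own libraries stood above it except 1 of 3 in seed_mut. The part of these reads in the L1 levels was not tested.

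The loss of the passenger did not differ from that in wild type past the threshold in any edited strain. The differences were log2 1.82 for mut_3', 1.55 for mir-82_3', 0.50 for seed_rev, -0.97 for seed_mut and -2.12 for seed_rev_no_bulge, with edgeR adjusted p = 0.999, 0.982, 0.994, 0.996 and 0.981 in the same order. The unadjusted edgeR p was 0.00898 for seed_rev_no_bulge, 0.0201 for mut_3' and 0.0466 for mir-82_3'. In embryos the passenger was higher than in wild type in seed_rev (log2 5.08, SE 0.53), seed_rev_no_bulge (4.35, SE 0.52), mut_3' (3.88, SE 0.51) and mir-82_3' (2.15, SE 0.50, edgeR adjusted p = 0.0128). In seed_mut it was 1.31 (SE 0.50), with edgeR adjusted p = 0.955. In L1 it was higher in mut_3' (5.70, SE 0.55, edgeR adjusted p = 2.74e-10), seed_rev (5.58, SE 0.55, edgeR adjusted p = 4.60e-10), mir-82_3' (3.69, SE 0.53, edgeR adjusted p = 5.68e-06) and seed_rev_no_bulge (2.23, SE 0.53, edgeR adjusted p = 0.0175), and 0.34 in seed_mut (SE 0.56, edgeR adjusted p = 0.983). Of these L1 levels, those of mut_3' alone stood above the reads of the same line in other strains in all libraries. The seed_rev_no_bulge call ended without its L1 replicate 1 (2.03) or wild-type L1 replicate 3 (2.12), 4 (2.04) or 5 (2.15), under spike-in scaling (1.41) and against wild type of the same runs (2.44). With all mir-35 lines of a strand summed, which adds the reads of other strains' lines, all 4 L1 calls ended (1.98 in mut_3', 1.50 in seed_rev, 1.75 in mir-82_3' and 1.79 in seed_rev_no_bulge), as did the embryo calls of mut_3' (1.36) and seed_rev_no_bulge (2.08). For mir-82_3' the embryo call ended without embryo replicate 2 (2.08) or 3 (1.73), under spike-in scaling (1.82), TMM factors without the family (2.01), no filter (1.94) or a stricter one (2.11), with cdb4 and cdb95 kept apart (2.04) and against wild type of the same runs (2.34). Its sign turned with all mir-35 lines of a strand summed (-0.29).

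Of the other passengers of the family, 6 of 7 were lower in L1 in seed_rev, seed_mut, mut_3' and wild type, where 23.6 to 31.4% of all arms were. In seed_rev_no_bulge 4 of 7 were, beside 24.5% of all arms, and in mir-82_3' 1 of 7 was, beside 23.6%. The arm mir-42_5p* passed in no strain, with values of -0.23 to 0.76. No other family passenger differed in its change from wild type past the threshold. In mir-82_3', where the own passenger changed by -2.08, the median of the 7 others was -1.11, against -3.10 in wild type. In seed_rev_no_bulge, where the own passenger changed by -5.74, that median was -1.68. The medians were -3.35 in seed_rev, -2.90 in seed_mut and -2.54 in mut_3'.

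**Figure D4:**
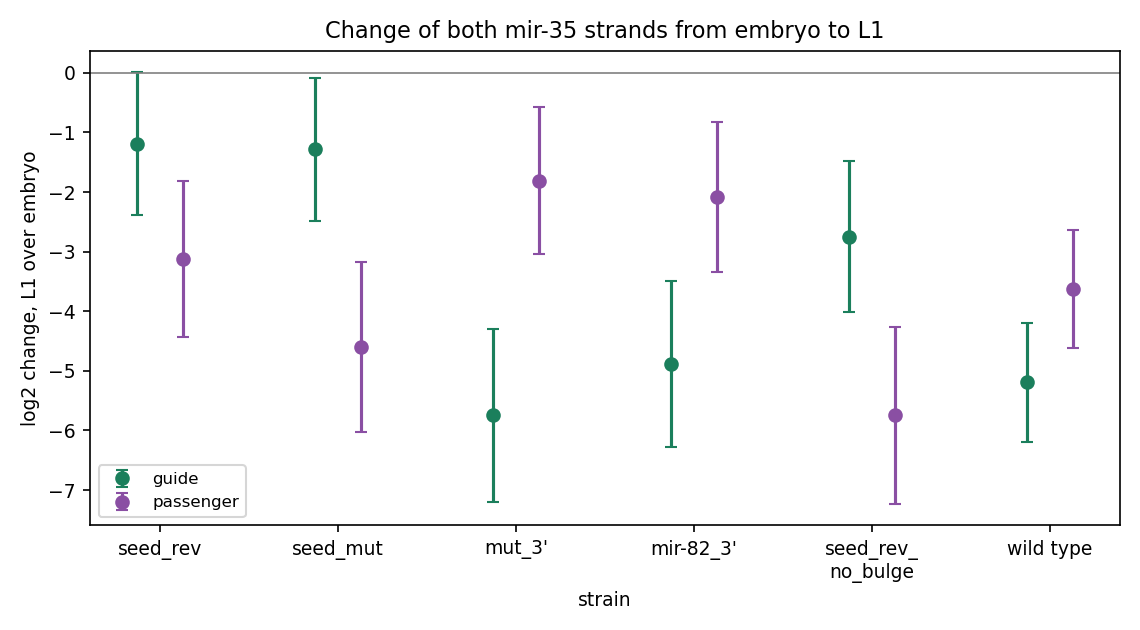
Log2 change from embryos to L1 (L1 over embryo) of the mir-35 guide and passenger in each strain, from edgeR, with 95% intervals. The guide lies above the passenger in seed_rev, seed_mut and seed_rev_no_bulge and below it in mut_3', mir-82_3' and wild type.

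The strand ratio, log2 of guide over passenger counts with 1 count added to each, does not depend on library scaling. In embryos it averaged 8.44 ± 0.67 in seed_rev, 8.36 ± 0.23 in seed_rev_no_bulge, 6.77 ± 0.44 in mir-82_3', 6.38 ± 1.12 in mut_3' and 3.19 ± 1.53 in seed_mut (SD, n = 3 each), against 12.86 ± 1.55 in wild type (n = 6). All 3 libraries of each edited strain lay below all 6 of wild type, with adjusted p = 0.0238 for each (2-sided exact permutation test over 16 comparisons, from 0.0119, the smallest p that 3 against 6 allow). The passenger was thus less rare beside its guide in every edited strain: in seed_mut embryos the guide had 4.31, 30.8 and 5.72 counts per passenger count, against 1315 to 36177 in wild-type embryos (median 8223). The highest value, 36177, was that of wild-type replicate 4, which had 33 passenger counts.

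In L1 the ratio averaged 10.51 ± 0.56 in seed_rev and 11.38 ± 0.29 in seed_rev_no_bulge (SD, n = 3 each), against 10.99 ± 0.67 in wild type (n = 6). These overlapped with wild type (exact permutation adjusted p = 0.343 and 0.405). For seed_rev this depended on how shared reads were counted. The difference from wild type was -1.53 with cdb4 alone and 3.21 with all mir-35 lines summed (exact permutation adjusted p = 0.0212 and 0.0238). The ratio was lower than in all wild-type libraries in seed_mut (5.84 ± 0.39), mut_3' (2.24 ± 0.63) and mir-82_3' (4.11 ± 2.48), with exact permutation adjusted p = 0.0238 for each. In L1 of mut_3' the guide had 6.07, 6.07 and 2.85 counts per passenger count.

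Between stages the ratio was higher in all L1 than in all embryo libraries of seed_rev (by 2.07), seed_mut (2.65) and seed_rev_no_bulge (3.02), and lower in all of them in mut_3' (-4.14) and mir-82_3' (-2.66, and -1.25 without L1 replicate 1). A design of 3 against 3 cannot give an exact permutation p under 0.1, which all 5 had. In wild type it was lower in L1 by -1.86 (exact permutation p = 0.0195, adjusted 0.0346), with overlap. This call ended in 10 of 12 cases when 1 library was left out (-2.36 to -1.42). The change of the ratio between same-numbered libraries was larger than in wild type by 3.93 in seed_rev, 4.52 in seed_mut and 4.88 in seed_rev_no_bulge, with all 3 pairs above all 6 of wild type (exact permutation adjusted p = 0.0397 for each, over 5, and resting on the same matching by number). With 1 library left out, adjusted p was above 0.05 in 16 of 18 cases for each strain, at 3.31 to 4.43, 3.79 to 5.38 and 4.43 to 5.38. Against wild type it differed by -2.28 in mut_3' (exact permutation adjusted p = 0.134) and by -0.79 in mir-82_3' (0.667, and 0.78 in difference without the L1 library that stood apart). Where passenger reads in L1 overlap those in other strains, as in seed_rev, seed_mut, mir-82_3', seed_rev_no_bulge and wild type, their part in the L1 ratio was not tested.

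Arms that mark the stages were checked beside mir-35. The miRNAs lin-4, mir-71, mir-84 and mir-237, which are known to increase in larvae, were each higher in L1 in all 6 strains of the allele set (edgeR). Wild-type embryo replicate 5 had the lowest scaling factor, and without it the guide difference from wild type was 3.93 in seed_rev and 3.84 in seed_mut, both past the threshold.

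In the staged libraries the guide was followed from the first divisions to the unfed larva. The stage markers did not all follow the labels there. In starved L1 against 2-8 cell, mir-71 was higher in ebax-1(null) (log2 2.01, edgeR adjusted p = 0.0411) and in wild type (1.79, edgeR adjusted p = 0.0303). However, lin-4 had 1 and 0 counts in starved L1 and 657 and 131 at the 2-8 cell stage of ebax-1(null), and 0 and 0 against 114 and 79 counts in wild type. In wild type lin-4 passed as lower (edgeR adjusted p = 0.0113), as did mir-237 (edgeR adjusted p = 0.0312), with 0 and 0 counts in starved L1 against 215 and 0. In ebax-1(null) mir-237 had 6 and 0 counts against 691 and 124 and did not pass (edgeR adjusted p = 0.280). The arm mir-84 was not higher in starved L1 in either strain (log2 -0.10 in ebax-1(null) and -0.43 in wild type). Only mir-71 thus followed the labels in this comparison. Some of these counts are few, and their bearing on the stage labels was not tested. In ebax-1(null) the mir-35 guide was 208394 and 200362 CPM at the 2-8 cell stage, 427494 and 260292 CPM at comma, 206239 and 113736 CPM at pretzel and 60266 and 75920 CPM in starved L1. In wild type it was 145034 and 189220 CPM, 401901 and 211767 CPM, 66665 and 76744 CPM, and 24936 and 12168 CPM at the same stages. After TMM scaling the mean level was highest at comma and lowest in starved L1 in both strains. As a share of miRNA counts the guide held 16.2 and 30.7% at the 2-8 cell stage of ebax-1(null) and 21.9 and 33.8% at comma. In wild type these shares were 20.3 and 31.2%, against 18.5 and 30.4% at comma. The guide was the most abundant arm in all 2-8 cell and comma libraries of both strains and at pretzel in ebax-1(null). It ranked 5 in both starved L1 libraries of ebax-1(null), against 10 and 14 in wild type.

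Starved L1 kept 19.8% of the comma level in ebax-1(null) (8.54 to 45.9%, log2 -2.34, SE 0.60, edgeR adjusted p = 0.0164), and 1.52% of 198 arms were lower in that comparison. In wild type it kept 6.05% (2.44 to 15.0%, log2 -4.05, SE 0.65, edgeR adjusted p = 1.49e-05), where 7.58% of arms were lower. Each fit with 1 library left out gave a larger fall, of log2 -3.12 to -2.68 in ebax-1(null) and -5.51 to -4.43 in wild type. Such a fit leaves 1 library in a group and redoes the filter and scaling. Its values therefore do not isolate the part of the library left out, and only their size is given. Against the 2-8 cell stage, starved L1 was lower by log2 -1.59 in ebax-1(null) (SE 0.59, edgeR adjusted p = 0.0625, with 6.06% of arms lower) and by -3.17 in wild type (SE 0.62, edgeR adjusted p = 0.000285, with 14.1% of arms lower). With 1 library left out the wild-type value was -4.99 to -3.79, with -4.99 without starved L1 replicate 1 and -4.81 without 2-8 cell replicate 1. The ebax-1(null) value passed under 7 other settings, and was -2.64 to -1.61 with 1 library left out. No step between neighbouring stages passed over all arms. Several did under other settings. From comma to pretzel the change was -1.10 (SE 0.58) in ebax-1(null) and -2.10 (SE 0.60, edgeR adjusted p = 0.103) in wild type. The wild-type value passed under 6 other settings, and was -2.32 without comma replicate 2. From pretzel to starved L1 it was -1.23 (SE 0.58) in ebax-1(null) and -1.95 (SE 0.59, edgeR adjusted p = 0.0663) in wild type. It passed in wild type under 4 other settings, and was -3.55 to -2.53 there with 1 library left out. Without pretzel replicate 2 the ebax-1(null) value was -2.65. From 2-8 cell to comma it was 0.75 (SE 0.58) in ebax-1(null), where 4.04% of arms were higher, and 0.88 (SE 0.58) in wild type, where 16.7% were, and the wild-type value turned negative under RLE size factors (-0.93), library totals (-0.08), DESeq2 (-0.93) and a stricter filter (-0.45). With TMM factors the median of all arms also rose in this step, by 0.60 in ebax-1(null) and 1.03 in wild type.

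**Figure D5:**
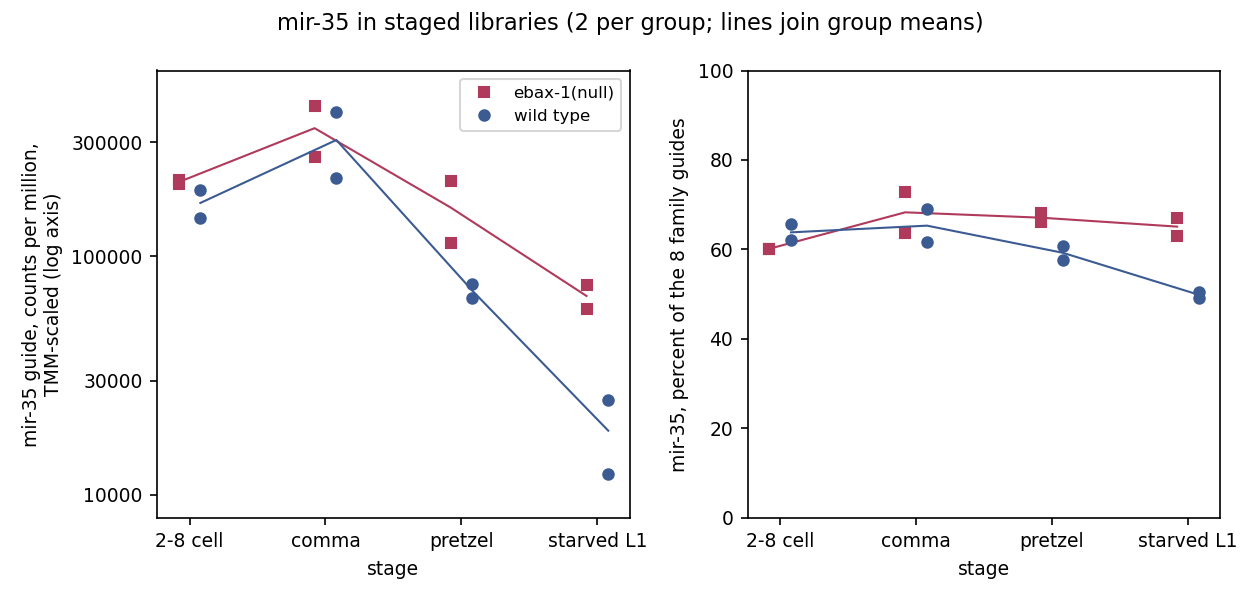
mir-35 in staged libraries of ebax-1(null) (squares) and wild type (circles), with 2 libraries per group and lines through group means. Left, guide level in CPM (TMM-scaled, log axis); right, percent of the 8 family guides. In starved L1 both ebax-1(null) libraries (60266 and 75920 CPM) lie above both of wild type (24936 and 12168 CPM).

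Between these strains the guide was higher in ebax-1(null) in both libraries at pretzel and in starved L1. In starved L1 the difference was log2 1.88 (SE 0.59, 95% interval 0.68 to 3.07), or 3.67-fold, which did not pass over all arms (unadjusted p = 0.00280, edgeR adjusted p = 0.185), and no arm passed there by edgeR (0%, with 22 at an unadjusted edgeR p under 0.05). By DESeq2 13 arms were past the threshold, and the mir-35 guide was not among them. The guide difference did pass in some other edgeR fits. It passed without a filter on low counts (1.81, edgeR adjusted p = 0.0427) and in a fit of these groups alone (1.78, 0.0218). Without wild-type starved L1 replicate 1, which leaves 1 library in that group, it was 2.41. At pretzel the difference was 1.16 (SE 0.58, edgeR adjusted p = 1), at comma 0.16 (SE 0.57) and at the 2-8 cell stage 0.29 (SE 0.57), and the last 2 turned negative under other settings. Without wild-type replicate 1 the 2-8 cell difference was -0.78. At comma it was -0.57 without wild-type replicate 2, and -0.42 and -0.03 without ebax-1(null) replicates 1 and 2. Over the 4 stages it averaged 0.87 (SE 0.29, edgeR adjusted p = 0.139), where 1.01% of arms passed, and 0.46 to 0.88 with 1 library left out. The loss from comma to starved L1 was smaller in ebax-1(null) by log2 1.71 (95% interval 0.07 to 3.36, edgeR adjusted p = 0.582), and by 1.55 to 2.62 with 1 library left out, the highest without wild-type starved L1 replicate 1. From pretzel to starved L1 the difference was 0.72 (-0.92 to 2.35), and 0.30 to 1.36 with 1 library left out.

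Within the family, mir-35 was 63.1 and 67.1% of guide counts in starved L1 of ebax-1(null), against 49.2 and 50.5% in wild type. At pretzel it was 68.1 and 66.1% in ebax-1(null) and 57.7 and 60.8% in wild type. The groups did not overlap at either stage. The 7 other guides were each higher in starved L1 of ebax-1(null) than in wild type, by log2 0.53 to 1.41 with a median of 0.84, and none passed. At the 2-8 cell stage the share was 60.1 and 60.2% in ebax-1(null), against 62.0 and 65.6% in wild type.

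The passenger was nearly absent from the staged counts. The line mir-35_5p* held 1 count in all 16 libraries, in ebax-1(null) 2-8 cell replicate 1, beside 4166080 guide counts, and it did not pass the filter on low counts. Passengers of the 7 other members had 33237 counts in the same libraries. In wild-type embryos of the allele set there were 1019 passenger counts beside 7006530 guide counts, or 6876 guide counts per passenger count. A library with 0 counts allows up to 3 counts, or 0.739 to 17.6 CPM by library totals. No strand ratio was therefore tested over the staged course.

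Across the 12 wild-type libraries of the allele set, the arms whose log2 level followed the mir-35 guide most closely were mir-40 (Pearson r = 0.994), mir-37 (0.983), mir-41 (0.976), mir-39 (0.973) and mir-36 (0.962), among 118 arms compared. All 5 belong to the family. Over the 8 wild-type staged libraries they were mir-37 (0.991), mir-39 (0.981), mir-40 (0.972), mir-65_5p (0.928) and mir-64_5p (0.901), among 123 arms. These values describe libraries that share stage, depth and scaling and carry no test.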

How the data were processed

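Small RNAs of 58 whole-animal libraries were made with a commercial kit with modifications, per the labels' protocols. The submitters' processing notes list Bowtie2 2.4.4, HTSeq 0.13.5, cutadapt 3.4, SAMtools 1.13 and, with no version, DESeq2. No source used here names the authors' build, so positions are left out. The table deposited by the authors holds expected counts per miRNA arm, not normalized; 510 values end in 0.5 and were rounded up. Its 296 lines are 276 arms, 10 edited mir-35 sequences and 10 spike-ins.

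In each library of the allele set, mir-35 was the line of its own allele, with the guide of seed_rev and seed_rev_no_bulge summed over cdb4 and cdb95, whose passengers would have been summed had their ratio stayed within 0.8 to 1.25. Arms were tested with edgeR 4.0.16 in R 4.3.3 (quasi-likelihood, robust, TMM factors, filterByExpr with minimum count 10 and total 15, no covariate) in 1 fit of 42 and 1 fit of 16 libraries, without spike-ins, with Benjamini-Hochberg adjustment over the 229 and 198 arms kept and a threshold of 0.05. SE is the log2 change over the root of F. TMM factors were 0.728 to 1.28 and 0.755 to 1.65, and the biological coefficient of variation 0.452 and 1.04. The fits were also run on simulated counts with planted changes. In the staged simulation these were larger than any mir-35 change reported there, so detection of changes of the reported size was not tested. Strand ratios were compared by exact permutation tests. The alternatives were other scalings (DESeq2 1.42.0 and spike-ins included), filters, replicate blocks, fits of the groups compared, allele lines summed or kept apart, wild type of the same runs of sample numbers, and each library left out. Figures used matplotlib 3.10.9 and tables pandas 2.3.3 (Python 3.11.15).

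Named arms were the 12 members, the other family arms as lists, the 5 arms most correlated with the mir-35 guide among those whose log2 CPM averaged 5 or more, and 4 stage markers. The members and lists were chosen with earlier results of these data known.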

Additional observations from a re-analysis of the deposited data

Results flagged for a closer look

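The change of the guide from embryos to L1 differed from that of wild type in seed_rev (log2 4.00) and in seed_mut (3.91), by the edgeR test of the difference itself. The change of the guide to passenger ratio differed from that of wild type in seed_rev (3.93), seed_mut (4.52) and seed_rev_no_bulge (4.88), by the exact permutation test of the difference. Among 6 wild-type embryo libraries, replicate 4 lay far above the others in guide counts per passenger count (36177), and replicate 3 lay far below them in the share of mir-35 among the family's guides (14.3%). Of the 8 sets of wild-type values searched for such libraries these 2 had one; the 95% limit used lets about 1 in 20 such sets pass by its construction.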

How the results depend on the processing

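Of 1619 alternative values for 84 results, 1391 kept direction and side of the threshold, 136 lost a call, 44 gained one and 48 changed sign. Some of the gained calls come from staged fits that left 1 library in a group. Where a value changed, the cause was not tested unless said. With RLE size factors the mir-82_3' passenger no longer passed between L1 and embryos (-1.48), and ebax-1(null) starved L1 against 2-8 cell passed (-2.14). Signs changed for the guide change of seed_mut minus seed_rev (0.00059), for comma against 2-8 cell in wild type (-0.93) and for ebax-1(null) against wild type at the 2-8 cell stage (-0.92). DESeq2 gave 0.00061, -0.93 and -0.92 for the same 3 values, and passed starved L1 against 2-8 cell in ebax-1(null) (-2.14) and pretzel against comma in wild type (-2.07). Spike-in scaling changed the sign of the L1 against embryo guide change in seed_rev (0.17), of the mut_3' difference from wild type (0.17) and of the seed_rev_no_bulge embryo guide against wild type (0.31). With it the passengers of mut_3' (-0.40) and mir-82_3' (-1.94) no longer passed between stages, nor did the guide of seed_rev_no_bulge in L1 (1.68) and the passenger of mir-82_3' in embryos (1.82) against wild type, while ebax-1(null) comma against 2-8 cell (2.21) and wild-type starved L1 against pretzel (-3.01) did.

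With TMM factors without the family, calls were gained by the guide of seed_mut (-1.59), by starved L1 against pretzel (-2.22) and against 2-8 cell (-2.61) in ebax-1(null), and by pretzel against comma (-2.53) and starved L1 against pretzel (-2.64) in wild type. Signs changed for the seed_rev_no_bulge embryo guide (0.021) and for ebax-1(null) against wild type at 2-8 cell (-0.50) and comma (-0.25). Without a filter the same 5 calls were gained (-1.54, -2.18, -2.22, -1.96 and -2.95), and ebax-1(null) against wild type in starved L1 passed (1.81) and changed sign at 2-8 cell (-0.36) and comma (-0.21). With at least 50 counts in every library of a group, the mir-82_3' passenger did not pass (-1.60), starved L1 against 2-8 cell in ebax-1(null) (-2.47) and pretzel against comma in wild type (-2.31) did, and signs changed for the seed_rev_no_bulge embryo guide (0.078), comma against 2-8 cell in wild type (-0.45) and ebax-1(null) against wild type at 2-8 cell (-0.45). In fits of the compared groups alone, the guides of seed_rev (-1.14) and seed_mut (-1.22), starved L1 against 2-8 cell in ebax-1(null) (-2.20), pretzel against comma in wild type (-2.16) and ebax-1(null) against wild type in starved L1 (1.78) passed, the mir-82_3' passenger did not (-1.63), and ebax-1(null) against wild type at 2-8 cell changed sign (-0.35). With library totals, starved L1 against 2-8 cell in ebax-1(null) (-1.999), pretzel against comma (-1.88) and starved L1 against pretzel (-1.73) in wild type passed, and signs changed for comma against 2-8 cell in wild type (-0.077) and ebax-1(null) against wild type at 2-8 cell (-0.13).

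With cdb4 and cdb95 kept apart, signs changed for the seed_rev embryo guide against wild type (-0.31) and the seed_rev_no_bulge L1 strand ratio (-0.63). The seed_rev L1 strand ratio then passed as lower than in wild type (-1.53). With all mir-35 lines of a strand summed, which adds the reads of other strains' lines, calls were lost by the passengers of seed_mut (-1.59) and mut_3' (-1.24) and by the embryo strand ratios of seed_rev (-2.23) and seed_rev_no_bulge (-2.52). The mir-82_3' passenger change (0.19), the passenger differences from wild type of seed_rev (-1.04) and seed_mut (0.27), the guide change of seed_mut minus seed_rev (0.81), the embryo passengers of seed_mut (-0.13) and mir-82_3' (-0.29) against wild type, the L1 strand ratio of seed_rev (3.21), the seed_rev_no_bulge ratio change (-0.12) and the mir-82_3' ratio difference (0.67) changed sign. Against wild type of the same runs the seed_mut guide difference was 3.14 and did not pass. The strand ratios, then 3 against 3, cannot pass: in embryos they differed by -8.85 for seed_mut, -7.30 for mut_3', -6.91 for mir-82_3', -5.31 for seed_rev_no_bulge and -3.60 for seed_rev, and their changes by 3.05, 3.63 and 5.77 in seed_rev, seed_mut and seed_rev_no_bulge and by 0.090, with changed sign, in mir-82_3'. Relative to the other family guides, an alternative chosen after seeing the data, the difference from wild type was 0.048 in mut_3', with changed sign, and 2.32 in seed_rev_no_bulge, which passed.

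Libraries of different groups within a run of sample numbers deviated together in part. In the allele set their median r was 0.263 over 129 pairs (lowest -0.341, 89 over 0.1). Pairs from different runs had a median of -0.0529 over 672 pairs, with 200 over 0.1. The 21 pairs of the same strain and run had a median of 0.261. In the staged set the medians were 0.0849 within and -0.0849 between replicate numbers. The main edgeR fits had no block, so they did not model this shared deviation. The changes of strand ratios and of the guide relative to its family were still taken between same-numbered libraries, and their SD and p rest on that matching. With the replicate block the seed_mut guide change was -1.39 and passed, the wild-type strand ratio change of -1.86 did not pass with sign flips of pairs, and no other call changed.

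With 1 library left out, values ranged from -1.75 to -0.89 for the seed_mut guide, -0.41 to 1.04 and 2.10 to 2.88 for the guide differences of mir-82_3' and seed_rev_no_bulge from wild type, -0.75 to 0.17 for seed_mut minus seed_rev, -0.41 to 0.20 for the seed_rev_no_bulge embryo guide against wild type, -2.85 to -1.14 and -2.01 to -1.24 for the passengers of mir-82_3' and mut_3', and -1.70 to 0.092 for the seed_mut passenger difference. For strand ratios they were -2.36 to -1.42 between stages in wild type, -10.55 to -9.13, -7.06 to -5.94, -6.59 to -5.64, -5.00 to -4.05 and -4.92 to -3.97 in embryos of seed_mut, mut_3', mir-82_3', seed_rev_no_bulge and seed_rev against wild type, and 3.31 to 4.43, 3.79 to 5.38, -1.62 to 0.78 and 4.43 to 5.38 for the changes of seed_rev, seed_mut, mir-82_3' and seed_rev_no_bulge. With 2 libraries of a strain the smallest exact p no longer passes after adjustment. In the staged set they were -0.78 to 0.32, -0.57 to 0.26, 1.39 to 2.41 and 0.46 to 0.88 for ebax-1(null) against wild type at 2-8 cell, comma, starved L1 and over the stages, -2.64 to -1.61 and -2.65 to -0.74 for starved L1 against 2-8 cell and pretzel in ebax-1(null), and -2.32 to -1.48 and -3.55 to -2.53 for pretzel against comma and starved L1 against pretzel in wild type. Depth limits the passengers, with 12 to 27 counts per library in wild-type L1.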
